A study of Mus musculus with 12 samples.

Results

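The genes described here are those of the respiratory chain and the ATP synthase in mouse pancreatic tumors. They were chosen by name: every protein-coding row of the deposited tables whose symbol marks a subunit of complex I (Nduf), complex II (Sdha to Sdhd), complex III (Uqcr), complex IV (Cox4 to Cox8) or complex V (Atp5), or a protein encoded by mitochondrial DNA (mt-Nd, mt-Co, mt-Cytb, mt-Atp). The rule found 97 of the 47643 genes, 84 encoded in the nucleus and 13 in mitochondrial DNA. Ndufa4 and Ndufa4l2 were placed with complex IV, since the NDUFA4 protein belongs to cytochrome c oxidase. Names caught by the rule that are not subunits, such as Atp5s, Atp5sl and Cox7a2l, were kept. Messenger RNA was sequenced in bulk from pieces of tumor formed by KPC4662, a mouse pancreatic ductal adenocarcinoma line. The groups, as labelled, were Old tumor and Young tumor, with 6 libraries each. Both held the same line, and the labels name no further allele, agent or treatment, nor the age in numbers, the strain, the sex or the route of implantation. Nor do they tie pieces to mice, so p-values measure the spread between pieces, which may be technical in part. A line grown in a host is 1 source of tumor cells, and a piece also holds the host's stroma and immune cells.

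The respiratory chain moves electrons from NADH and succinate to oxygen through complexes I to IV in the inner mitochondrial membrane, and the ATP synthase, complex V, uses the proton gradient that results. Complexes I, III, IV and V are built from products of both genomes, and complex II from nuclear genes alone. Core subunits carry the catalytic sites, and the more numerous small accessory subunits surround them. Nuclear genes for these subunits are known targets of the transcription factors NRF1, GABP, YY1 and ERR alpha, while mitochondrial DNA is transcribed by its own polymerase, POLRMT, with TFAM.

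Library totals ran from 17754645 to 24097599 counts in old tumors and from 20094808 to 23068369 counts in young tumors. Of the 84 nuclear genes, 80 passed the filter on low counts, and all 13 mitochondrial genes did. Cox6a2 held 26 counts in all libraries together, and Cox7b2, Cox8b and Cox8c held 0. The 10 markers of carcinoma epithelium summed to 5561 to 9314 CPM (counts per 1000000, on scaled library sizes) in old tumors and 5692 to 10680 CPM in young tumors, and 0 of the 10 passed the test in edgeR, in DESeq2 or at an unadjusted p under 0.05. The 8 skeletal and heart muscle markers summed to at most 2.46 CPM in any library, with Myh1 at 0 throughout. Of the host markers, Ighm, an antibody chain, passed the test (adjusted p = 0.0287 in edgeR), at 12.9, 145.7 and 878.9 CPM in old tumors (lowest, median and highest library) against 3.46, 4.67 and 14.9 CPM in young tumors. Plin4, an adipocyte lipid droplet protein, also passed (adjusted p = 0.0390 in edgeR), at 2.04, 8.36 and 20.4 CPM in old tumors against 0.867, 2.06 and 2.87 CPM in young tumors. Markers of B and plasma cells (7 genes) summed to 15.7 to 972.8 CPM in old tumors and 7.85 to 42.1 CPM in young tumors, those of adipocytes (7 genes) to 24.8 to 101.8 CPM in old tumors and 9.72 to 26.5 CPM in young tumors, and those of T cells (10 genes) to 10.03 to 36.8 CPM in old tumors and 20.03 to 46.7 CPM in young tumors. Of the T cell markers, 9 of 10 were below 0 with a median log2 fold change of -0.70, 0 were called in edgeR, 2 were called lower in DESeq2 and 5 had an unadjusted p under 0.05. Stromal lists lay on the other side of 0: all 9 fibroblast, all 6 endothelial and all 7 smooth muscle and pericyte markers were above 0, with medians of 0.62, 0.65 and 0.77. edgeR called 0 of these, and DESeq2 called 2 endothelial and 1 smooth muscle and pericyte marker higher. In the order of the lists, 1, 2 and 3 had an unadjusted p under 0.05. Of all tested genes, 45.8% were below 0 and 54.2% above it. An unadjusted p under 0.05 was met by 10.5% lower and 10.6% higher. DESeq2 called 5.32% lower and 3.58% higher, and edgeR 1.61% and 0.918%. Fibroblast markers summed to 1323 to 9892 CPM in old tumors and 1555 to 3688 CPM in young tumors, endothelial ones to 82.9 to 338.8 CPM in old tumors and 90.9 to 132.1 CPM in young tumors, and smooth muscle and pericyte ones to 115.2 to 687.7 CPM in old tumors and 132.5 to 189.7 CPM in young tumors. The part of such cells in the results below was not tested.

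Nuclear-encoded genes of the chain were lower in old tumors as a class, at a median of 0.804-fold, while those of mitochondrial DNA showed no common shift. Of the 80 tested nuclear genes, 23 (28.7%) fell and 0 rose at an adjusted p under 0.05 in edgeR, against 1.61% of all 16013 tested genes that fell and 0.918% that rose. The log2 fold change, old over young, was below 0 for 76 of the 80, against 45.8% of all genes, and its median was -0.31, against 0.03 for all genes. All 6 old libraries lay below all 6 young ones for 19 of the 80, against 1.97% of all genes, and above them for 0, against 0.999%. An unadjusted p under 0.05 was met by 62 members lower and 0 higher, against 10.5% and 10.6% of all genes. In bulk tumor, fewer cells of a type and less RNA per cell cannot be told apart. The median stayed between -0.35 and -0.29 whichever library was left out, but the count of calls changed, as it did over all genes. Without Old tumor 1, 46 members were called lower, against 4.21% of all genes, and with Young tumor 3 left out 25, against 1.93%. Leaving out Young tumor 2 gave 9 (0.413% of all genes lower), Young tumor 6 gave 6 (0.569%), and Young tumor 5, Old tumor 4, Young tumor 4 and Old tumor 5 gave 5 each (0.296%, 0.278%, 0.248% and 0.241%). Leaving out Old tumor 6 gave 3 (0.148%) and Old tumor 2 gave 2 (0.0743%). With Old tumor 3 left out 0 were called (0% of all genes lower) and with Young tumor 1 left out also 0 (0.0433%). In that order, 60 and 62 members were lower at an unadjusted p under 0.05. The share of all genes at that p was not counted for these fits. DESeq2 called 54 of the 80 lower, against 5.32% of all genes lower and 3.58% higher. Without both Old tumor 1 and Old tumor 5, edgeR called 30 lower, against 2.43% of all genes lower and 2.15% higher. Short genes in general were lower in old tumors, and the size of the difference shrinks once that trend is removed, as described with the exon lengths.

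**Figure D1:**
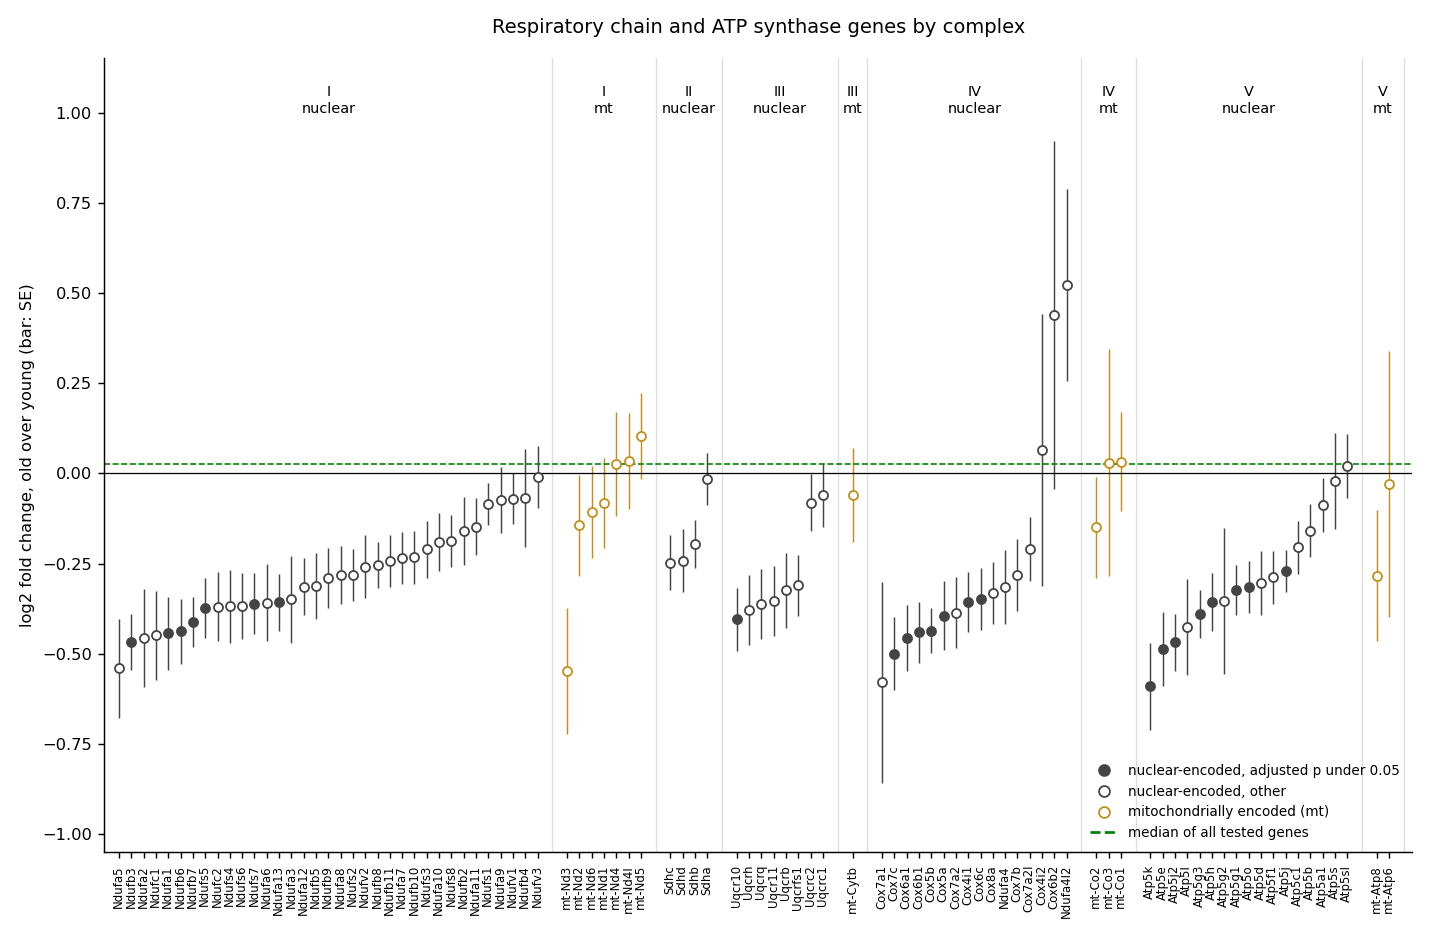
Log2 fold change, old over young, of each tested member, sorted within its complex, with the standard error as a bar. Filled points passed an adjusted p under 0.05 in edgeR, all of them nuclear-encoded and below 0; the dashed line at 0.0256 is the median of all tested genes.

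Summed over its nuclear genes, each complex had less transcript in old tumors on the TPM scale, which divides counts by gene length. TPM leave in place a length trend that differs between libraries, as described with the exon lengths. Complex V summed to 4565 ± 226 TPM in old tumors and 5226 ± 184 TPM in young tumors (SD, n = 6 each), complex I to 4102 ± 220 TPM in old tumors and 4614 ± 164 TPM in young tumors, and complex IV to 3760 ± 233 TPM in old tumors and 4417 ± 225 TPM in young tumors. For these 3 sums, no old library reached the lowest young one. Complex III summed to 1319 ± 105 TPM in old tumors and 1483 ± 63.2 TPM in young tumors, with 4 of 6 old libraries below the lowest young one. Complex II, the only one without a mitochondrial gene, differed least, at 442.8 ± 30.2 TPM in old tumors and 464.3 ± 23.2 TPM in young tumors, and 2 of 6 old libraries lay below the lowest young one. As a share of all counts, nuclear members made up 0.619 ± 0.034% in old libraries and 0.727 ± 0.030% in young libraries, with no overlap.

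Complex I oxidises NADH. All 35 of its nuclear genes were below 0, 7 of them fell, and the median was -0.29. The 28 accessory subunits had a median of -0.33 with 6 called, and the 7 nuclear core subunits one of -0.21 with 1 called; the difference between core and accessory was not tested. Ndufb3, an accessory subunit of the membrane arm (chromosome 1, 58586384 to 58595964), had 32.9, 37.1 and 42.0 CPM in old tumors (lowest, median, highest) against 48.1, 52.0 and 54.8 CPM in young tumors. Every old library lay below every young one, and the log2 fold change was -0.47 (SE 0.0779, adjusted p = 0.0241 in edgeR). Ndufb7, another membrane arm subunit (chromosome 8, 83566671 to 83571626), had 41.9, 46.0 and 49.8 CPM in old tumors against 55.7, 59.6 and 67.3 CPM in young tumors, again with no overlap, and fell by 0.41 on the log2 scale (SE 0.0689, adjusted p = 0.0241 in edgeR). Ndufb6 had 20.7, 25.6 and 28.8 CPM in old tumors against 31.7, 33.8 and 39.1 CPM in young tumors, without overlap, and fell by 0.44 (SE 0.0887, adjusted p = 0.0316 in edgeR). Ndufs5 had 19.5, 20 and 25.1 CPM in old tumors against 24.3, 26.9 and 29.8 CPM in young tumors. Old tumor 1 alone reached into the young range for this gene, whose log2 fold change was -0.37 (SE 0.0833, adjusted p = 0.0400 in edgeR, and 0.0502 once the counts of its processed pseudogene BC002163 were added).

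Ndufs7, which holds the iron-sulfur cluster next to ubiquinone, was the core subunit that fell. Its levels were 24.2, 28.4 and 31.6 CPM in old tumors against 32.2, 35.9 and 42.3 CPM in young tumors, with no overlap (log2 fold change -0.36, SE 0.0846, adjusted p = 0.0431 in edgeR). Ndufa1 and Ndufa13 fell as well, by 0.44 and 0.36. Of the subunits on the path from NADH, Ndufv1, which binds FMN, was at -0.07 (SE 0.0699), Ndufs1, the largest iron-sulfur subunit, at -0.08 (SE 0.0585), and Ndufv2, the iron-sulfur subunit beside Ndufv1, at -0.26 (SE 0.0863), none past the test in edgeR. Ndufa7 had the highest level among the nuclear genes of the complex, 327.4 ± 28.4 TPM in old tumors and 353.3 ± 27.2 TPM in young tumors, with a log2 fold change of -0.23 (SE 0.0723, adjusted p = 0.0907 in edgeR). The highest log2 fold change among these nuclear genes was that of Ndufv3, -0.009 (SE 0.0859), with 43.3, 48.5 and 50.4 CPM in old tumors against 42.5, 45.7 and 60.1 CPM in young tumors. All 6 old libraries lay inside the young range. Ndufa5, at -0.54 (SE 0.137, adjusted p = 0.0534 in edgeR), had the lowest fold change of the 35 without a call, and an SE above that of each of the 7 called.

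**Figure D2:**
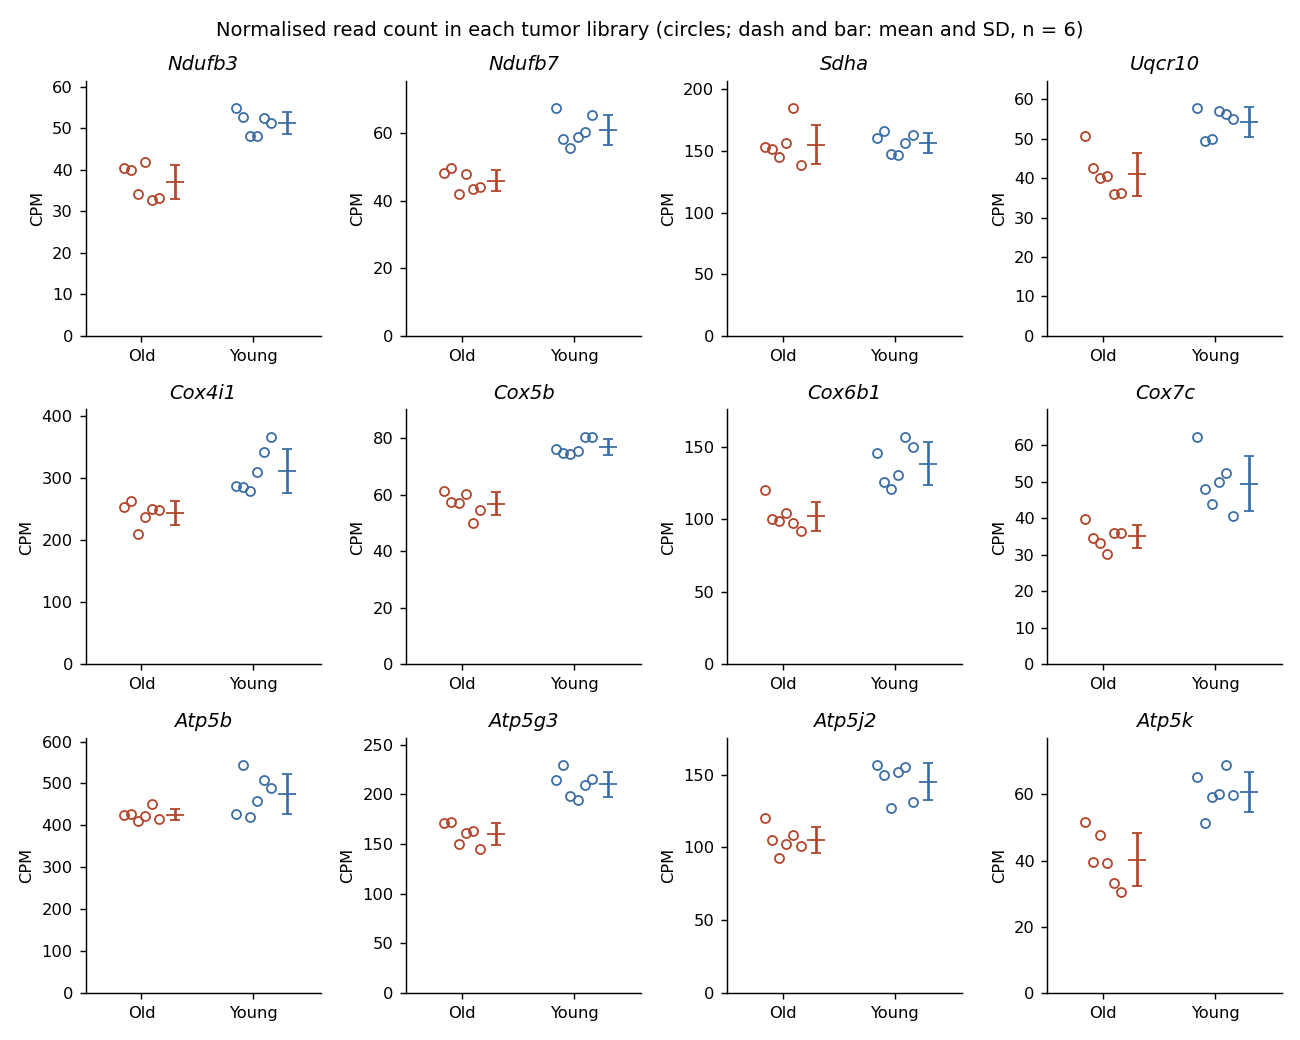
Normalised read counts (CPM, from 0) of 12 nuclear members in each old and young tumor library, with the mean and SD of 6 libraries beside the circles. Old and young circles separate fully for Ndufb3, Ndufb7, Cox4i1, Cox5b, Cox6b1, Cox7c, Atp5g3 and Atp5j2, touch or overlap slightly for Uqcr10 and Atp5k, and overlap for Sdha and Atp5b.

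Complex II, succinate dehydrogenase, had 0 of its 4 genes called in edgeR, with 3 at an unadjusted p under 0.05 and 2 called by DESeq2. Sdha, the flavoprotein that oxidises succinate, had 138.9, 152.8 and 184.7 CPM in old tumors against 147.0, 158.5 and 166.5 CPM in young tumors. The old libraries enclosed the young ones, and the log2 fold change was -0.01 (SE 0.0726). Sdhb, the iron-sulfur subunit, had 48.5, 54.2 and 57.0 CPM in old tumors against 56.9, 60.4 and 68.2 CPM in young tumors (log2 fold change -0.19, SE 0.0667, adjusted p = 0.118 in edgeR); the highest old library just passed the lowest young one. The membrane anchors Sdhc and Sdhd had log2 fold changes of -0.25 (SE 0.0765, adjusted p = 0.0913 in edgeR) and -0.24 (SE 0.0886, adjusted p = 0.144 in edgeR). All 6 old libraries were below the young median for both.

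Complex III passes electrons from ubiquinol to cytochrome c. Its 8 nuclear genes were all below 0, with a median of -0.34, and 1 was called. That gene, Uqcr10, encodes a small subunit and had 36.0, 40.2 and 50.7 CPM in old tumors against 49.3, 55.7 and 57.6 CPM in young tumors. Old tumor 1 was the one old library inside the young range, and the log2 fold change was -0.40 (SE 0.0870, adjusted p = 0.0358 in edgeR). The 5 small accessory subunits lay close together, from -0.40 to -0.32. Among them Uqcrh, the hinge protein and the most abundant at 281.4 ± 41.0 TPM in old tumors and 322.8 ± 17.9 TPM in young tumors, had -0.38 (SE 0.0965, adjusted p = 0.0540 in edgeR). Uqcrq had -0.36 (SE 0.0977, adjusted p = 0.0626 in edgeR). Uqcrfs1, the Rieske iron-sulfur protein, had 59.4, 69.0 and 81.1 CPM in old tumors against 78.5, 82.6 and 99.7 CPM in young tumors (log2 fold change -0.31, SE 0.0846, adjusted p = 0.0646 in edgeR). The large core proteins stood apart in size: Uqcrc1 was at -0.06 (SE 0.0875) and Uqcrc2 at -0.08 (SE 0.0793), and Uqcrc1 ran from 100.4 to 116.4 CPM in old tumors, within its young range of 93.1 to 130.9 CPM.

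Complex IV, cytochrome c oxidase, had 7 calls, and all 7 were among the 11 widely expressed nuclear subunits, whose median was -0.39. Cox5b, a zinc-binding subunit on the matrix side (chromosome 1, 36691449 to 36693681), had the smallest adjusted p of all members. Its levels were 50.1, 57.4 and 61.4 CPM in old tumors against 74.4, 75.8 and 80.5 CPM in young tumors. The gap between the groups, from 61.4 to 74.4 CPM, was wider than the spread within either, and the log2 fold change was -0.44 (SE 0.0621, adjusted p = 0.0144 in edgeR). Cox6b1 had 91.6, 99.3 and 120.1 CPM in old tumors against 120.9, 138.3 and 156.7 CPM in young tumors, just short of overlap (log2 fold change -0.44, SE 0.0844, adjusted p = 0.0293 in edgeR). Cox6a1 had 71.4, 83.3 and 103.5 CPM in old tumors against 105.3, 118.1 and 134.5 CPM in young tumors (log2 fold change -0.46, SE 0.0914, adjusted p = 0.0316 in edgeR). Cox4i1, the most abundant nuclear member at 676.3 ± 59.6 TPM in old tumors and 782.3 ± 91.2 TPM in young tumors, fell by 0.36 on the log2 scale of counts (SE 0.0840, adjusted p = 0.0437 in edgeR), with no overlap. Cox5a and Cox6c fell by 0.39 and 0.35. Cox7c had 30.3, 35.4 and 39.8 CPM in old tumors against 40.7, 48.96 and 62.3 CPM in young tumors and fell by 0.50 (SE 0.1, adjusted p = 0.0316 in edgeR). Its pseudogenes Gm12338 and Gm10012 held 1.23 times as many counts as the gene; with these added, the log2 fold change was -0.40 (SE 0.0896, adjusted p = 0.0410 in edgeR).

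The tissue isoforms of complex IV were scarce, and 0 of the 4 tested ones was called in edgeR or had an unadjusted p under 0.05. DESeq2 gave no adjusted p for Cox4i2, Cox6b2 and Cox7a1 and so could not call them. It did not call Ndufa4l2 (adjusted p = 0.219 in DESeq2). Mean TPM of Cox4i1 was 250 times that of Cox4i2 in old tumors and 334 times in young tumors, and Cox7a2 was at 24.5 times its heart and muscle isoform Cox7a1 in old tumors and 21.1 times in young tumors. Cox6a2, the heart and muscle isoform with 26 counts in all, stood beside Cox6a1 at 290.3 ± 38.2 TPM in old tumors and 361.6 ± 22.1 TPM in young tumors. Cox8b, the muscle and brown fat isoform, was listed at 0 beside Cox8a at 331.1 ± 18.7 TPM in old tumors and 379.3 ± 50.8 TPM in young tumors. Ndufa4l2, the hypoxia-induced relative of Ndufa4, had the highest fold change of all members. It had 4.29, 8.87 and 16.1 CPM in old tumors against 5.23, 6.91 and 8.26 CPM in young tumors. Old tumor 1, 2 and 5 lay above every young library and Old tumor 4 below them all, and the log2 fold change of 0.52 (SE 0.266, adjusted p = 0.280 in edgeR) did not pass the test. Ndufa4 itself had 17.9 times the TPM of Ndufa4l2 in old tumors and 31.7 times in young tumors, with a log2 fold change of -0.32 (SE 0.102, adjusted p = 0.102 in edgeR). Cox4i2 (0.07, SE 0.377) and Cox7a1 (-0.58, SE 0.278, adjusted p = 0.251 in edgeR) overlapped between the ages.

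Complex V had 8 of its 17 nuclear genes called, and the calls lay mostly outside the catalytic head. The peripheral stalk, which holds the head still, had 3 of 4 called (Atp5h, Atp5j and Atp5o), the c ring of the rotor 2 of 3 (Atp5g1 and Atp5g3), the small membrane subunits 2 of 3 (Atp5j2 and Atp5k), and the F1 head and central shaft 1 of 5 (Atp5e). In the same order, DESeq2 called 4, 2, 3 and 3 genes lower. With the correction on annotated exon length described below, 0, 2, 2 and 1 were called. The difference between the head and the other parts was not tested. Atp5j2, subunit f, had 92.6, 103.9 and 120.2 CPM in old tumors against 127.1, 150.7 and 156.4 CPM in young tumors, with no overlap (log2 fold change -0.47, SE 0.0779, adjusted p = 0.0241 in edgeR). Atp5k, subunit e, was the called gene with the lowest fold change. Its levels were 30.6, 39.3 and 51.6 CPM in old tumors against 51.3, 59.9 and 68.8 CPM in young tumors, touching only at Old tumor 1 and Young tumor 2 (log2 fold change -0.59, SE 0.121, adjusted p = 0.0326 in edgeR). Atp5g3, a c subunit gene (chromosome 2, 73908447 to 73911326), had 144.5, 162.0 and 172.2 CPM in old tumors against 194.0, 211.7 and 229.3 CPM in young tumors. No libraries overlapped, and the log2 fold change was -0.39 (SE 0.0660, adjusted p = 0.0241 in edgeR). Atp5e, the F1 epsilon subunit, had 50.8, 61.5 and 74.4 CPM in old tumors against 74.2, 88.1 and 97.3 CPM in young tumors, the highest old library just passing the lowest young one (log2 fold change -0.49, SE 0.102, adjusted p = 0.0342 in edgeR). The other subunits of the head and shaft had higher fold changes than Atp5e. Atp5d was at -0.30 (SE 0.0893, adjusted p = 0.0796 in edgeR) and Atp5c1 at -0.21 (SE 0.0724, adjusted p = 0.128 in edgeR). The called stalk gene Atp5j lay between these, at -0.27 (SE 0.0584). Atp5b, the catalytic beta subunit and most abundant nuclear gene of the complex at 648.8 ± 34.9 TPM in old tumors and 682.3 ± 53.2 TPM in young tumors, was at -0.16 (SE 0.0727, adjusted p = 0.231 in edgeR), and Atp5a1, the alpha subunit, at -0.09 (SE 0.0755, adjusted p = 0.535 in edgeR). Atp5sl, which is known to act in complex I assembly despite its name, was at 0.02 (SE 0.0884).

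Several nuclear members share sequence with processed pseudogenes, so their counts depend on how reads were divided. Stretches of 50 bases were compared between annotated transcripts: 22 nuclear members shared at least 1% of theirs with an expressed pseudogene, and for 4 the pseudogenes held a large part of the counts. Gm10175 held 11.8 times the counts of Atp5g2, the pseudogenes of Ndufb4 together 2.45 times, those of Cox7c 1.23 times and those of Atp5l 0.656 times. Atp5g2 alone varied 2.46-fold between its highest and lowest library, and 1.64-fold with Gm10175 added; its log2 fold change was -0.35 (SE 0.203) alone and -0.25 (SE 0.0966, adjusted p = 0.164 in edgeR) with the copy. The log2 fold change of Ndufb4 was -0.07 (SE 0.136) alone, and -0.20 (SE 0.0744, adjusted p = 0.143 in edgeR) with its copies. Over all members, adding the pseudogene counts left 22 nuclear calls and a median of -0.31, against 1.61% of all genes lower and 0.926% higher. Exons of some members also overlap another gene, on the opposite strand for 25 nuclear members and on the same strand for 5, Ndufb2, Ndufb8, Ndufb9, Atp5o and Atp5g2. No source used here gives the strand setting of the counting, without which such reads cannot be told apart.

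The 13 genes of mitochondrial DNA showed no common difference. None was called in edgeR, 1 had an unadjusted p under 0.05 and DESeq2 called 1, in both cases mt-Nd3. Their median log2 fold change was -0.06, with 8 of 13 below 0, but the sign depended on the scale: the median was 0.10 on log2(TPM + 1) values and 0.06 with the length correction. As a share of all counts they made up 3.93 ± 0.53% in old libraries and 3.95 ± 0.86% in young libraries, a mean near equal with wider spread than that of the nuclear members. The ratio of mitochondrial to nuclear counts was 6.37 ± 0.975 in old tumors and 5.46 ± 1.31 in young tumors, and the groups overlapped. mt-Co2, which takes electrons from cytochrome c, was the most abundant member at 17450 ± 2222 TPM in old tumors and 17580 ± 3275 TPM in young tumors. It had 4734, 6601 and 7130 CPM in old tumors against 4851, 7578 and 8501 CPM in young tumors (log2 fold change -0.15, SE 0.141, adjusted p = 0.572 in edgeR), with Old tumor 5 and Young tumor 6 low in their groups. mt-Nd6, the only one of the 13 annotated on the minus strand, had 803.4, 875.1 and 1017 CPM in old tumors against 591.7, 1004 and 1114 CPM in young tumors (log2 fold change -0.11, SE 0.128). Young tumor 6 was the lowest young library for 11 of the 13 genes.

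Part of the mitochondrial values is uncertain, because the genome build holds a nearly identical copy of a stretch of mitochondrial DNA on chromosome 1 that the tables list as pseudogenes. The copy of mt-Co3 (Gm28437) matched it over 783 of 784 bases and held 3.93 times its counts. That of mt-Atp6 (Gm10925) matched over 678 of 681 bases and held 2.74 times, and that of mt-Nd3 (Gm28438) had 1 mismatch in 345 bases and held 0.88 times. The copy of mt-Co2 (Gm28661) was identical over 681 bases too, yet it and a further copy on chromosome 2 together held 0.00247 times the counts of the gene. The last bases of 2 pairs are shown, from the GENCODE transcripts on GRCm38, to let the identity be seen; capitals mark the bases of the mitochondrial gene that lie beyond the annotated end of the copy.
mt-Atp6: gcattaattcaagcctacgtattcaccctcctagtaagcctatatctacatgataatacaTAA
Gm10925: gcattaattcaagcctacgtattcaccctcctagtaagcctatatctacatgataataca
mt-Co3: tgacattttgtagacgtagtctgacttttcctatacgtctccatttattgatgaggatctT
Gm28437: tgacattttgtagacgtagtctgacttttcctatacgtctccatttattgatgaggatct

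The division between gene and copy changed from library to library. The mitochondrial gene held 19.6% to 30.5% of the summed counts of mt-Atp6 and its copy in old tumors and 8.64% to 33.6% in young tumors. mt-Atp6 alone varied 7.49-fold between libraries, with 1117, 2010 and 2538 CPM in old tumors against 410.9, 2123 and 3076 CPM in young tumors. With the copy, it varied 2.05-fold, from 5685 to 8311 CPM in old tumors and from 4757 to 9749 CPM in young tumors. mt-Co3 varied 3.84-fold alone and 1.71-fold with its copy, and its log2 fold change was 0.03 (SE 0.314) alone and -0.17 (SE 0.135) with it. mt-Nd3, a small core subunit of complex I, had the smallest p of the 13, with 210.5, 289.7 and 417.4 CPM in old tumors against 339.6, 466.6 and 567.2 CPM in young tumors. Its log2 fold change of -0.55 (SE 0.174, adjusted p = 0.0982 in edgeR and 0.0300 in DESeq2) alone compares with -0.34 (SE 0.126, adjusted p = 0.152 in edgeR) with the copy, for which the old libraries ran from 549.8 to 673.5 CPM and the young ones from 541.9 to 960.7 CPM. With all copies, mitochondrial sequence made up 5.18 ± 0.66% of counts in old libraries and 5.32 ± 1.13% in young libraries. The median log2 fold change was then -0.08, with 11 of 13 below 0 and 0 called in edgeR.

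**Figure D3:**
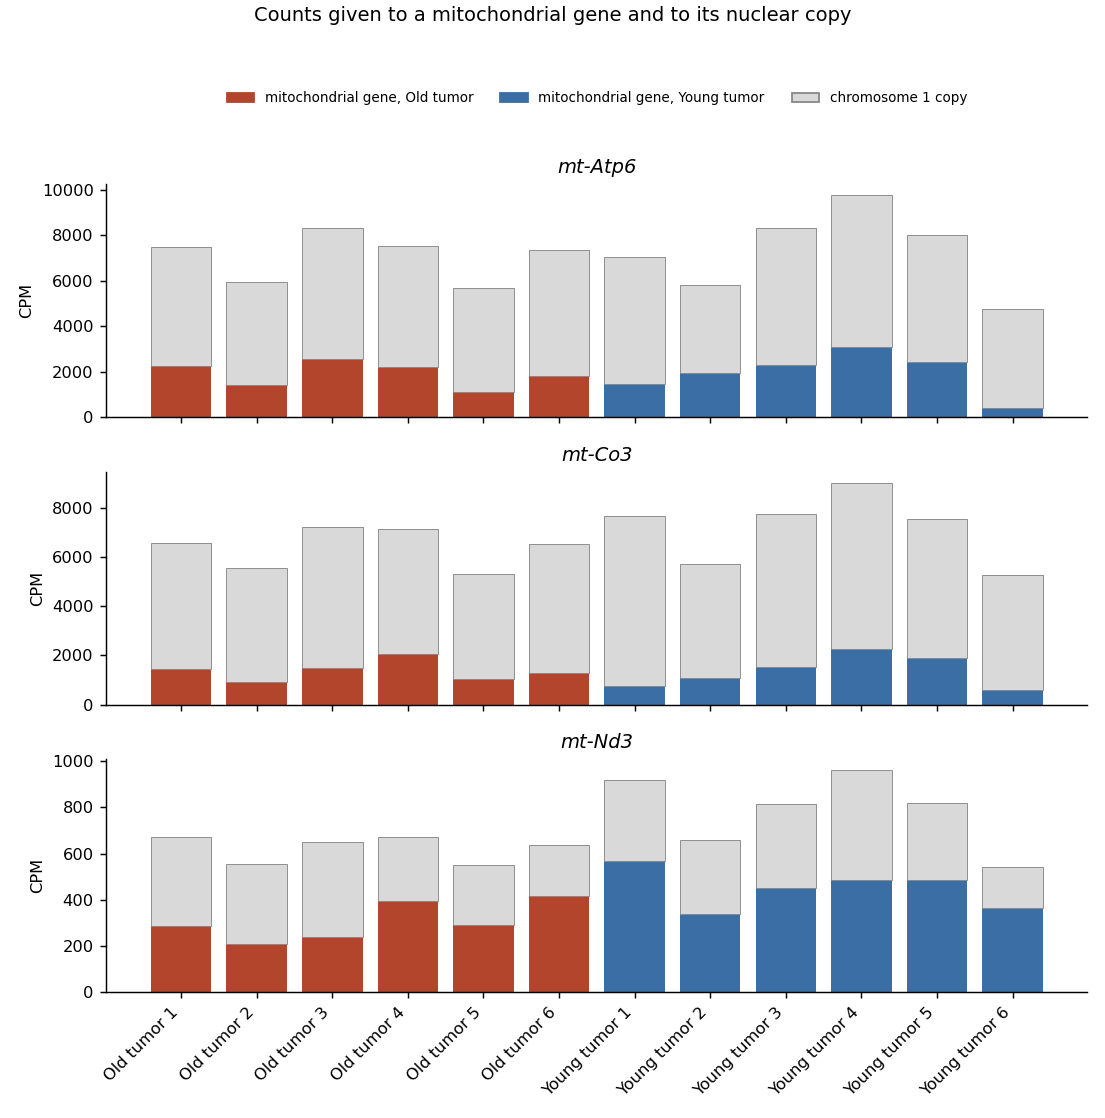
CPM given to mt-Atp6, mt-Co3 and mt-Nd3 (coloured) and to their chromosome 1 copies (grey), stacked, in each of 6 old and 6 young tumor libraries. The coloured part shifts between libraries, down to 8.64% of the bar for mt-Atp6 in Young tumor 6, while the summed height varies less.

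Members of the chain are mostly short genes, and in these libraries fold change followed gene length throughout the transcriptome. All tested genes in the shortest decile by annotated exon length (83 to 1334 bases) had a median log2 fold change of -0.18 and those in the longest (9469 to 123179 bases) of 0.16. The shortest decile held 32 of the 80 nuclear members and the longest 0. By length class, the members' median was below that of all genes: those of at most 1 kb had a median of -0.39 against -0.20 for all genes of that class, those over 1 kb to 2 kb -0.31 against -0.11, and those over 2 kb -0.23 against 0.05. In the same order, 8 of 19, 8 of 31 and 7 of 30 were called, against 4.39%, 4.15% and 0.992% of all genes called lower. Across the 80 members, Spearman's rho between exon length and fold change was 0.417, a description over genes that share the same libraries.

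A correction for length in the fit lowered the size of the difference and the number of calls. With annotated exon length, 9 members fell (Ndufb3, Ndufb7, Cox5b, Cox6b1, Atp5e, Atp5g1, Atp5g3, Atp5j2 and Atp5k) against 0.612% of all genes; the median was -0.26 against -0.02 for all genes, 75 of 80 were below 0, against 53.2% of all genes, and rho was 0.0501. Higher calls were 0.0749% of all genes. With the effective length implied by the deposited counts and TPM, edgeR called 0 members and 0 genes lower, with 40 members lower and 1 higher at an unadjusted p under 0.05, against 9.47% and 5.31% of all genes; the median was -0.17 against -0.02, and 73 of 80 were below 0, against 53.7% of all genes. Higher calls were 0.0125% of all genes. On log2(TPM + 1) values tested with limma, 6 members fell against 0.300% of all genes, with 1.82% higher, and the median was -0.18. The median of all genes was then 0.13, so that the members stood at -0.305 relative to it, against -0.340 for the counts without correction. Under these 4 scales the median of the nuclear members relative to that of all genes ran from -0.340 to -0.153. How much of the difference belongs to length was not tested.

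**Figure D4:**
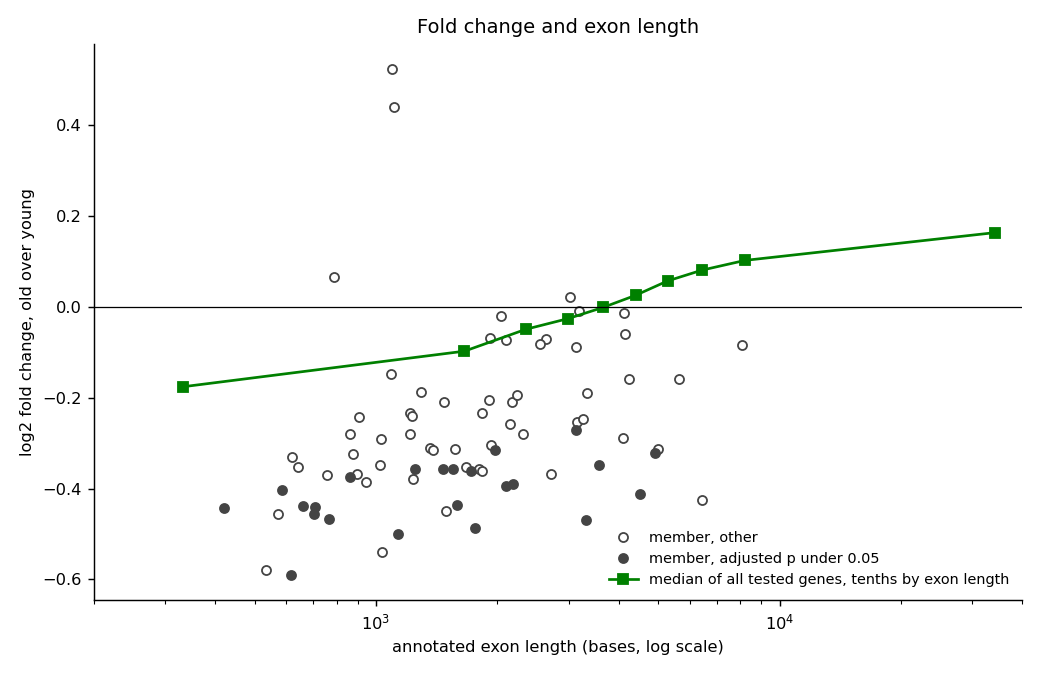
Log2 fold change, old over young, of the 80 tested nuclear members against annotated exon length on a log scale, with the median of all tested genes per decile of length as squares. Of the 80 points, 76 lie below 0, and the line of squares runs from -0.176 in the shortest to 0.163 in the longest decile.

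The length trend also differed between libraries, with some overlap of the ages. The slope on log2 exon length of the deviation of non-member genes from their means ran from -0.002 to 0.078 in old libraries and from -0.080 to 0.012 in young libraries. It was above 0 in all old libraries but Old tumor 4 and below 0 in all young ones but Young tumor 2. The median deviation of nuclear members from their mean ran from -0.249 to -0.024 in old libraries and from 0.017 to 0.263 in young libraries, without overlap. Old tumor 1 was the highest old library and Young tumor 3 the lowest young one. The median deviation of mitochondrial members ran from -0.281 to 0.221 in old libraries and from -0.436 to 0.386 in young libraries, and so spread more within each age than between them.

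**Figure D5:**
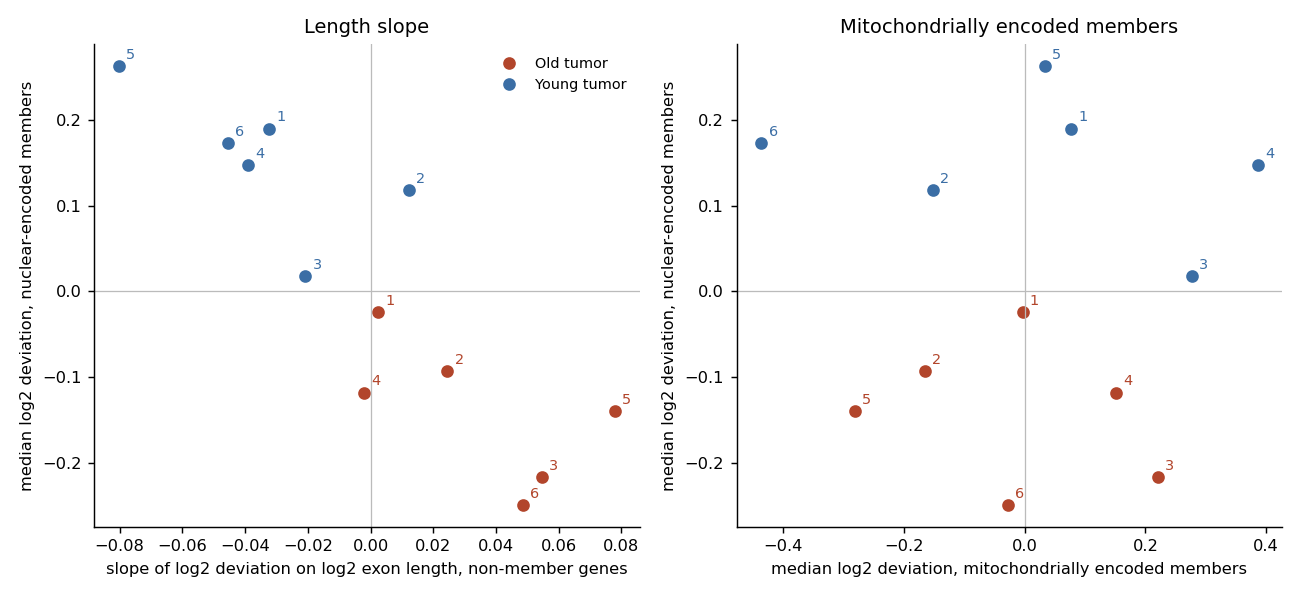
Each point is a library (numbers are replicates): the median log2 deviation of nuclear members from their mean over libraries against the length slope of the genes that are not members (left) and against the median deviation of mitochondrial members (right). Old libraries lie below 0 and young ones above on the vertical axis in both panels, and the mitochondrial axis does not part them.

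Within an age, nuclear members correlated about equally within and across complexes. With log2 CPM centred within each age over 12 libraries, the median Pearson correlation was 0.313 over 885 pairs from the same complex and 0.319 over 2275 pairs from different complexes. Pairs of mitochondrial genes had a median of 0.740, and pairs of a nuclear and a mitochondrial gene -0.115. These are descriptions, since the pairs share libraries, depth and length. Cox6b1 followed the mean of the other nuclear members most closely (r = 0.892), before Cox6c (0.879) and Cox6a1 (0.871). Atp5g2 (-0.441), Atp5s (-0.346), Ndufs1 (-0.156) and Ndufb4 (-0.149) were among the lowest. Of these, Atp5g2 and Ndufb4 have pseudogenes that hold more counts than the gene. Cox7c, whose pseudogenes also hold more counts than the gene, had 0.43.

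Promoters of the nuclear members were searched for letters bound by the known regulators. RefSeq promoter windows on GRCm38.p6 (250 bases before to 50 after the start) matched 69 of the 84 nuclear members, and 27025 genes gave the background; both strands were searched. The NRF1 motif, GCGCA followed by TGCGC, was held by 5 of the 69 members (7.25%) and 1.07% of all genes. The ETS motif of GABP, CCGGAAG, was held by 16 (23.2%) and 9.93%, and the YY1 motif AAGATGGC by 11 (15.9%) and 3.19%. The ERR motif TCAAGGTCA was held by 2 (2.90%) and 0.466%, and the SP motif GGGCGG by 28 (40.6%) and 38.2%. The 27025 background genes were not limited to the tested ones. The ETS motif stood in 8 of 21 called members and 8 of 48 others, and the YY1 motif in 3 of 21 and 8 of 48. The SP motif stood in 7 of 21 and 21 of 48, the NRF1 motif in 2 and 3, and the ERR motif in 1 and 1. These splits were not tested. A match is a description of letters and not a bound site. The 3 windows shown belong to called members whose upstream bases hold the NRF1, ETS or ERR motif, in capitals with any SP motif; each is 200 bases, 5′ to 3′ on the gene's strand, and lies upstream of the gene start in both RefSeq and GENCODE, with 23 bases next to the RefSeq start left out for Cox6a1 and 4 for Atp5e. In Cox6a1 (chr5:115348982-115349181, minus strand) the NRF1 motif begins 162 bases before the RefSeq start. In Atp5e (chr2:174464106-174464305, minus strand) the ETS motif, on the reverse strand, begins 102 bases before it. In Atp5g3 (chr2:73911327-73911526, minus strand) the ERR motif, also reversed, begins 52 bases before it.
Cox6a1: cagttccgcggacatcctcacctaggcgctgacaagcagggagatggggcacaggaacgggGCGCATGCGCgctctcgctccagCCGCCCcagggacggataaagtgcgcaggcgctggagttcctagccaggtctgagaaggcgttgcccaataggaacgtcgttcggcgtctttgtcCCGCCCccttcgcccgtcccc
Atp5e: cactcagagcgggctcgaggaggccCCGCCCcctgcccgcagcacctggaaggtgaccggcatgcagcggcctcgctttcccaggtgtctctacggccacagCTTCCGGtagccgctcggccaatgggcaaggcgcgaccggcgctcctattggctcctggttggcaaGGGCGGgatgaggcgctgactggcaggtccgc
Atp5g3: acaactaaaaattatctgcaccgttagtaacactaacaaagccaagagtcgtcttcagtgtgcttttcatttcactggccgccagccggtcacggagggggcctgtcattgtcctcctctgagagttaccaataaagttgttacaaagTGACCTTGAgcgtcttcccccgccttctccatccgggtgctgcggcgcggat

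Genes that build or serve the chain had medians nearer to 0. Of 50 tested assembly factors for the 5 complexes, 0 were called in edgeR, 16 had an unadjusted p under 0.05 and DESeq2 called 9, all lower. Of all tested genes, 1.61% were called lower in edgeR, 10.5% were lower at an unadjusted p under 0.05 and DESeq2 called 5.32% lower. The median log2 fold change of the assembly factors was -0.14. Those of complex IV had the lowest median, -0.21 over 22 genes. Among them Coa3, which stabilises newly made mt-Co1 protein, had 31.6, 36.0 and 42.2 CPM in old tumors against 40.1, 45.4 and 46.9 CPM in young tumors (log2 fold change -0.29, SE 0.0764, adjusted p = 0.0566 in edgeR). The copper chaperone Cox17 had -0.28 (SE 0.0763, adjusted p = 0.0611 in edgeR), and Atpif1, the inhibitor of the ATP synthase, -0.34 (SE 0.0884, adjusted p = 0.0565 in edgeR). Ndufaf2 (-0.33, SE 0.126) and Timmdc1 (-0.14, SE 0.0682), both for complex I, Sdhaf1 (-0.33, SE 0.152) and Sdhaf4 (-0.29, SE 0.105) for complex II, Uqcc2 (-0.34, SE 0.0914) and Uqcc3 (-0.14, SE 0.133) for complex III, and Tmem70 (-0.21, SE 0.0667) for complex V had the smallest p in their lists and did not pass the test. The 16 genes of electron carriers and ubiquinone synthesis had a median of -0.05 with 0 called in edgeR or DESeq2. At an unadjusted p under 0.05, 3 were lower, against 10.5% of all genes. Coq7 (-0.24, SE 0.0877) and Coq10b (-0.24, SE 0.0890) had the smallest p there. The 14 regulators of respiratory gene transcription had a median of -0.03, with 0 called in edgeR. DESeq2 called 1 lower, against 5.32% of all genes, and 1 was lower at an unadjusted p under 0.05, against 10.5%. Tfam had 30.3, 33.5 and 35.5 CPM in old tumors against 34.4, 38.5 and 43.0 CPM in young tumors (log2 fold change -0.23, SE 0.0701, adjusted p = 0.0914 in edgeR), and Polrmt was at 0.13 (SE 0.0944). Ndufab1, the complex I subunit outside the name rule, was at -0.24 (SE 0.0794, adjusted p = 0.110 in edgeR). Of 11 markers of mitochondrial mass, all were below 0 with a median of -0.20, against 45.8% of all genes below 0. In edgeR 2 of the markers fell, against 1.61% of all genes. DESeq2 called 4 lower, against 5.32%, and 6 were lower at an unadjusted p under 0.05, against 10.5%. Phb, a prohibitin of the inner membrane, fell by 0.25 (SE 0.0564, adjusted p = 0.0417 in edgeR), and Tomm20, a receptor of the import pore, by 0.27 (SE 0.0668, adjusted p = 0.0498 in edgeR). Whether the members stood lower than these markers was not tested.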

How the data were processed

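Bulk RNA of 12 tumor pieces was selected for poly(A) and made into strand-specific libraries, per the labels' protocols. The submitters' processing notes name cutadapt 2.3, STAR 2.7.0d, RSEM 1.3.1 and genome build mm10. The authors deposited estimated counts per gene (expected counts), of which the whole-number share was at least 86.0% in each library. They also deposited TPM, scaled per length to 1000000 per library. The annotation is unnamed there, and gene types, exon lengths and positions were taken from GENCODE M21 on GRCm38.

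Expected counts were rounded to whole numbers, filtered with filterByExpr, scaled by TMM and tested with the quasi-likelihood test of edgeR 4.0.16 (R 4.3.3) on all 12 libraries, old over young, with Benjamini-Hochberg adjustment over all 16013 genes and a threshold of 0.05. The fit was also run on simulated counts without a length trend, with set changes larger than the members' median. That run does not show how the fit performs on changes of the size found here. CPM are on TMM-scaled library sizes. Alternatives were RLE scaling, total counts, library sizes without mitochondrial genes, other filters, DESeq2 1.42.0, limma 3.58.1 on log2(TPM + 1) and log2(TPM + 0.1), length corrections, a replicate block and each library left out. Added after seeing the data were the correction on annotated exon length, the addition of pseudogene counts, the fit without Old tumor 1 and Old tumor 5 and the fit without robust estimation.

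Members and lists were chosen with earlier results of these data known. Named with full values were, per complex, up to 4 nuclear members with the smallest p, the one with the highest mean TPM and the one with the highest fold change; mt-Nd6, and the mitochondrial members with the highest TPM and the smallest p; the tissue isoforms; and 2 genes per related list. Other members were named for their role, or because pseudogenes share their sequence, after their values were seen. Library totals set the precision, and TPM carry no depth.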

Additional observations from a re-analysis of the deposited data

Results flagged for a closer look

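In 74 groups of 6 libraries, one for each named member at each age, the most extreme library was compared with the spread of the other libraries of its group. Its gap to the nearest one exceeded 0.625 of the whole range in 4 groups, and chance gives about 1 in 20 such groups. Ndufs5 stood at 25.1 CPM in Old tumor 1, against 19.5 to 20.7 CPM in the other old libraries. Cox8a stood at 107 CPM in the same library, against 88.3 to 94.5 CPM in the others. mt-Co2 was at 4730 CPM in Old tumor 5, against 6370 to 7130 CPM in the other old libraries. mt-Nd6 was at 592 CPM in Young tumor 6, against 940 to 1110 CPM in the other young libraries.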

How the results depend on the processing

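The number of calls depended on the setting, and the direction of the nuclear members' median did not in any setting run. Of the 80 tested nuclear members, 23 were called lower as reported, 15 with total counts, 54 with DESeq2, 6 on log2(TPM + 1) and on log2(TPM + 0.1), 9 with the correction on annotated exon length, 0 with that on effective length, and 0 to 46 with 1 library left out. Their median was -0.178 on both TPM scales and -0.173 with the correction on effective length. Over all genes, calls in either direction numbered 405 as reported, 331 with total counts, 1425 with DESeq2 and 262 without a filter. They numbered 339 on log2(TPM + 1) and 356 on log2(TPM + 0.1). With the corrections on exon and effective length there were 110 and 2. Without Old tumor 1 and Old tumor 5 there were 747, and with 1 library left out 1 to 1122. DESeq2 called 1 mitochondrial member. The share of higher among all calls was 36.3%, but 51.7% with total counts, 85.8% on log2(TPM + 1) and 10.9% with the exon length correction.

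Replicate numbers recur in both groups, and the labels state no link between same-numbered libraries. Their deviations correlated at -0.23 to 0.139, and only number 3 matched its own number best. Whether same-numbered libraries share a batch cannot be told from these values. With the replicate block, edgeR called 0 members and 1 gene in all, and the members' median was -0.313. At an unadjusted p under 0.05, 61 members were lower, and the share of all genes at that p was not counted under the block. Under the block Ndufv3 had 0.000402 and Cox4i2 -0.0279.

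Members near 0 changed sign. Ndufv3 had 0.0246 with total counts, 0.0327 and 0.033 on the TPM scales, 0.124 with the correction on effective length, 0.0241 without Old tumor 1 and Old tumor 5, and -0.0465 to 0.0651 with 1 library left out. Sdha had 0.0142 with total counts, 0.0742 and 0.0749 on the TPM scales and -0.0583 to 0.0127 with 1 library left out. Uqcrc1 had 0.102 and 0.103, mt-Co2 0.0015 and mt-Nd6 0.0549 on the TPM scales, and mt-Nd6 had 0.063 and 0.0403 with the corrections on effective and exon length. Atp5sl had -0.0171 to 0.0552 and Cox4i2 -0.284 to 0.211 with 1 library left out, and Cox4i2 -0.265 without Old tumor 1 and Old tumor 5. The cause was not tested.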
